A study of Rousettus aegyptiacus with 32 samples.

Results

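Open chromatin was compared in strength between cortex and striatum of the Egyptian fruit bat, Rousettus aegyptiacus, over the regions that carried a peak in every one of 12 ATAC-seq libraries. The intervals of the 12 peak lists were merged where they overlapped, and of the 343556 merged regions 70435 (20.5%) had a peak in all 8 cortical and all 4 striatal libraries. These shared regions are described here by how strong and how wide their peaks were on each side, so that graded differences are described and not the presence or absence of a peak. The merged regions of all 20 peak lists of the series number 856986.

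The libraries came from bulk tissue of 2 adult males, bats 1 and 3, with 1 library per area and animal. The cortical side holds secondary auditory cortex (2A), ofM1 and wM1 (the orofacial and the wing representation of primary motor cortex) and the premotor area (PreM). The striatal side holds the caudate nucleus and the putamen. Nuclei were taken from cryopreserved tissue. The labels name no treatment, strain or genotype for either side. Areas of 1 animal share that animal, so the comparison rests on 2 bats. In bulk tissue, a weaker peak in all cells and a peak in fewer of the cells cannot be told apart. The study as a whole concerns convergent evolution of regulatory elements with vocal learning.

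ATAC-seq marks accessible DNA by where the transposase Tn5 can insert, and accessible stretches hold promoters, enhancers and other regulatory elements. Promoters of widely used genes are open in most cell types, whereas distal enhancers differ more between cell types. Mammalian cortex is built largely of glutamatergic projection neurons with interneurons and glia, whereas the striatum is built largely of GABAergic medium spiny projection neurons with fewer interneurons and glia. The caudate and putamen share their main neuron type. The gene table used here places no gene on a scaffold, so the genes at or near the regions were not analysed here, and the tissue labels could not be checked against marker genes.

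Strength is given as a percentile. In each library the shared regions were ranked by the highest -log10 p of a peak in the region, and the rank was scaled from 0 (weakest) to 100 (strongest). Every library therefore has the same average, and a region can be higher on one side only relative to the other shared regions. All 12 lists stopped at 300000 rows, and the weakest peak listed had a -log10 p of 3.3 in ofM1 of bat 1 and 12.3 in caudate of bat 1. Read depth does not go with the lists, so the depth behind a peak is unknown here. Shared regions had a median width of 1177 bases, with 613 and 2000 bases at the lowest and highest 10%, and they held 40.63% to 47.37% of the intervals of a library. Regions with a peak in 11 of the 12 libraries, just outside the choice, numbered 11598. Their median place in the whole lists was the 45th percentile, against 74.9 for the shared regions, and the missing library was cortical in 6886 and striatal in 4712.

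The ranks followed the side. The correlation of ranks over the 70435 regions was 0.791 to 0.944 between cortical libraries (28 pairs, median 0.882) and 0.887 to 0.959 between striatal libraries (6 pairs, median 0.906). Between a cortical and a striatal library it was 0.601 to 0.711 (32 pairs, median 0.642). The lowest value within a side was thus above the highest value between sides. Caudate of bat 1 and caudate of bat 3 gave the highest correlation of all pairs, 0.959, although they come from different animals. Within cortex, pairs from the same animal had a median of 0.913 and pairs from different animals one of 0.862. These values describe sites that share libraries and carry no test.

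A large share of the shared regions differed in strength. Of the 70435 regions, 26550 (37.7%) were called at an adjusted p under 0.05 in limma's moderated test, 13442 of them (19.1%) higher in cortex and 13108 (18.6%) lower in cortex. Regions higher in cortex differed by a median of 24.2 percentile points, and regions lower in cortex by a median of -26.3 points. Most of the remaining 43885 regions were close to equal, with a median absolute difference of 5.2 points and 76.1% of them under 10 points. Across all shared regions the middle 50% of differences lay between -9.3 and 10.3 points, 5% were below -37.9 and 5% above 34.7 points. The near balance of the 2 directions follows in part from ranking within the shared regions. When the percentile was taken among all intervals of a library, 26962 regions were called, 17818 higher in cortex and 9144 lower.

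The fold enrichment at the called regions was read beside the ranks, a peak on both sides being a condition of the choice of regions. In regions higher in cortex the median over regions of the caller's fold enrichment was 7.48 in cortex and 5.39 in striatum, and in regions lower in cortex it was 4.57 in cortex and 10.1 in striatum. In regions not called it was 6.35 in cortex and 8.09 in striatum. The fold is the authors' value, with no scaling between libraries, and it ran lower in cortex as a whole. The median fold over shared regions averaged 6.24 ± 0.697 in cortex (SD, n = 8) and 7.95 ± 0.638 in striatum (SD, n = 4), a difference of -1.71. An exact 2-sided permutation of side labels within animals gave p = 0.0044, the smallest that 225 arrangements can give, and 0.0089 after adjustment over the 2 values tested per library. The permuted libraries are areas of 2 bats, so this p measures the spread between areas and not between animals. Cortical libraries ranged from 5.09 to 7.35 and striatal libraries from 7.03 to 8.47, so the sides overlapped at 2A of bat 1 and putamen of bat 3. Within bat 1 alone the difference was -1.87 (exact permutation p = 0.1333) and within bat 3 alone it was -1.55 (exact permutation p = 0.0667, the smallest possible with 1 animal). Ranks within a library rather than folds are compared between sides, since the values of separate lists carry no scaling between libraries.

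Large differences were frequent. Of the regions tested, 17682 (25.1%) were called and differed by at least 20 points, 8572 of them (12.2%) higher in cortex and 9110 (12.9%) lower. Differences of at least 40 points were found in 2465 called regions higher in cortex and 3091 lower, and of at least 60 points in 416 higher and 760 lower. In 17011 regions (24.2%) the 8 cortical and the 4 striatal percentiles did not overlap, with cortex above in 8270 (11.7%) and below in 8741 (12.4%). The largest differences were 85.4 points higher in cortex and -89.4 points lower. No region was in the top 10% of all 8 cortical libraries and in the lower 50% of all 4 striatal ones, while 39 regions were in the lower 50% of all 8 cortical and in the top 10% of all 4 striatal libraries. The first condition asks for the top 10% in 8 libraries and the second in 4 libraries, so the 2 counts are not like for like.

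The regions with the largest difference in each direction, among those called without overlap of the sides, were numbered by size as C1 to C10 (higher in cortex) and S1 to S10 (lower in cortex). C1 lies at bases 38178862 to 38179908 of scaffold NW_023416290.1. Its percentile had a lowest value of 83.8, a median of 86.3 and a highest value of 92.8 in the 8 cortical libraries, against 0.4 and 3.9 in caudate of bats 1 and 3 and 0.8 and 1.0 in putamen of bats 1 and 3. It was thus among the stronger shared regions in every cortical library and among the weakest in every striatal one, with a difference of 85.4 ± 4.5 points (SE, limma adjusted p = 2.12e-06). The fold at C1 ranged from 9.32 to 14.2 in cortex and from 2.54 to 3.47 in striatum. A peak was present in striatum but low, not far above the weakest peaks of the lists. Its -log10 p was 13.9 and 8.88 in caudate and 7.97 and 7.02 in putamen of bats 1 and 3. The weakest peaks listed in these libraries had 12.3 and 4.65 in caudate and 6.45 and 5.71 in putamen. C2, at bases 86290344 to 86291822 of scaffold NW_023416308.1, had percentiles of 81.1, 83.7 and 89.9 (lowest, median and highest) in cortex, against 1.3 and 3.2 in caudate and 0.9 and 0.2 in putamen of bats 1 and 3. The difference at C2 was 82.9 ± 4.7 points (limma adjusted p = 2.12e-06), with 82.6 points in bat 1 and 83.2 in bat 3. Both animals therefore gave nearly the same difference at this region.

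C3, at bases 8561670 to 8563082 of scaffold NW_023416286.1, had percentiles of 81.2, 87.6 and 93.7 in cortex, against 3.2 and 6.3 in caudate and 4.7 and 3.6 in putamen. C4, at bases 61409037 to 61409979 of scaffold NW_023416284.1, had 79.4, 87.1 and 95.3 in cortex, against 4.5 and 6.3 in caudate and 3.4 and 4.3 in putamen. Both differed by 82.7 ± 4.6 points, and no striatal library came near a cortical one. C5 to C10 differed by 79.0 to 82.2 points, with cortical percentiles between 75.2 and 96.8 and striatal ones between 0.4 and 17.8. The median fold of the 10 regions was 9.49 to 16.2 in cortex and 2.3 to 3.66 in striatum. The 10 regions lie on 8 scaffolds.

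In the other direction, S1 lies at bases 130844462 to 130845556 of scaffold NW_023416307.1. Its percentile was 0.7, 6.2 and 12.2 (lowest, median and highest) in cortex, against 96.2 and 97.3 in caudate and 95.5 and 93.6 in putamen of bats 1 and 3. It was the largest difference of all the named regions, at -89.4 ± 4.5 points (SE, limma adjusted p = 2.12e-06), and its fold ranged from 2.33 to 4.28 in cortex and from 18.5 to 22.5 in striatum. S2, at bases 39324540 to 39325842 of scaffold NW_023416286.1, had percentiles of 0.2, 2.4 and 16.3 in cortex, against 96.1 and 95.5 in caudate and 95.4 and 91.4 in putamen. At S2 the cortical libraries were uneven: ofM1 and 2A of bat 1 stood at 16.3 and 16.1, and the other 6 cortical libraries at 4.6 or less. All of them were far below the striatal libraries (difference -89.0 ± 5.0 points, limma adjusted p = 2.12e-06).

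S3, at bases 48483170 to 48484533 of scaffold NW_023416306.1, had percentiles of 1.1, 6.1 and 15.8 in cortex, against 94.0 and 94.1 in caudate and 96.1 and 93.4 in putamen. S4, at bases 14598697 to 14600154 of scaffold NW_023416288.1, had 0.4, 3.3 and 15.0 in cortex, against 92.6 and 93.5 in caudate and 91.5 and 87.1 in putamen. Their differences were -87.6 ± 4.5 and -86.8 ± 4.4 points. S5 to S10 differed by -86.6 to -85.3 points, with cortical percentiles of 0.0 to 25.2 and striatal percentiles of 80.0 to 98.7. At S7 the peak in 2A of bat 3 had a -log10 p of 4.45, the weakest listed in that library. The median fold of the 10 regions was 2.63 to 4.25 in cortex and 11 to 20.7 in striatum. In all 10 the lowest striatal percentile was that of putamen of bat 3.

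**Figure D1:**
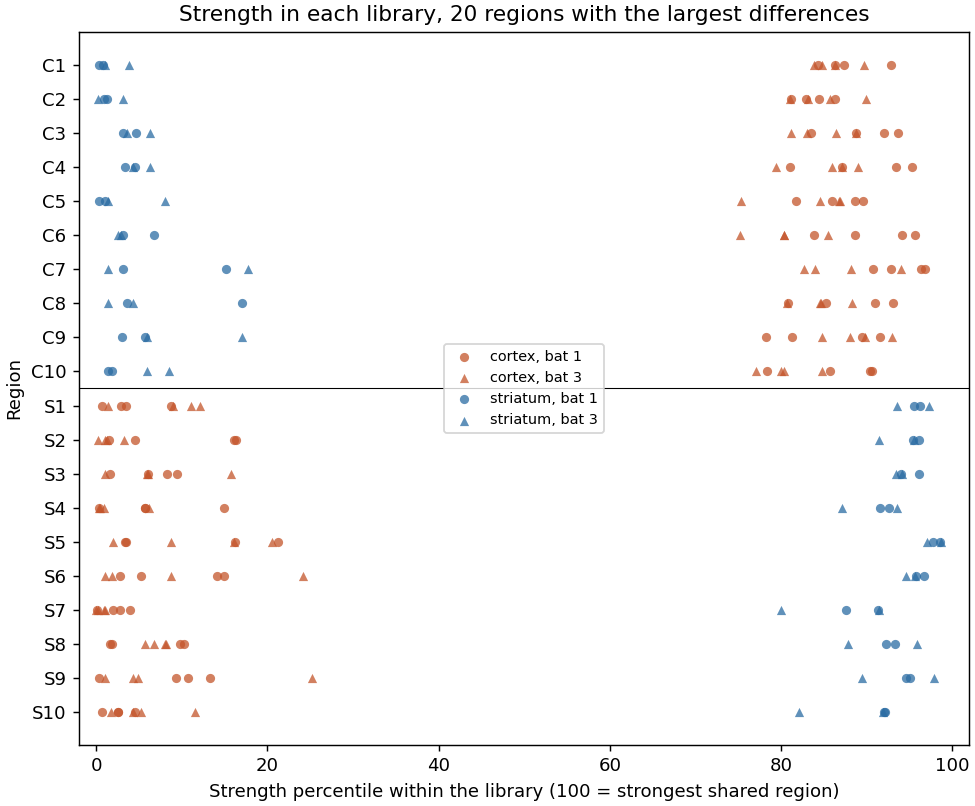
Strength percentile within each library (x axis, 100 the strongest shared region) for regions C1 to C10 and S1 to S10 (y axis), with 1 point per library, coloured by side and shaped by animal. In C1 to C10 the 8 cortical points lie between 75.2 and 96.8 and the 4 striatal points between 0.2 and 17.8, and in S1 to S10 the cortical points lie between 0.0 and 25.2 and the striatal points between 80.0 and 98.7.

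The difference between sides was alike in the 2 animals. The differences in bat 1 and in bat 3, each from its own 6 libraries, had a rank correlation of 0.794 over the 70435 regions. Their direction was shared in 13442 of 13442 regions called higher in cortex and in 13107 of 13108 called lower, which follows largely from calling them on both animals together, and in 66.1% of the regions not called. With 1 animal left out, 21704 regions were called without bat 1 and 18113 without bat 3. These fits had 1 library per area, so areas of 1 bat served as the replicates. The spread between animals was not tested by them. The side effect differed between the animals in 1 region (0.00142%) by limma's interaction test at an adjusted p under 0.05, and in 4316 (6.13%) at an unadjusted p under 0.05. That region, at bases 16341606 to 16342860 of scaffold NW_023416308.1, was higher in cortex by 9.8 points in bat 3 and by 45.7 points in bat 1 (difference -35.9 ± 4.0, SE, adjusted p = 0.0166). Its cortical percentiles were 90.9 to 93.8 in bat 3 and 83.1 to 91.0 in bat 1, while caudate and putamen stood at 80.4 and 84.7 in bat 3 and at 39.9 and 44.1 in bat 1. The animals thus differed mainly in striatum at this region. Each bat gave 1 library per area, so the interaction test took areas as the replicates of a bat. Its error was the spread between areas, and the low count does not show that the animals are alike.

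**Figure D2:**
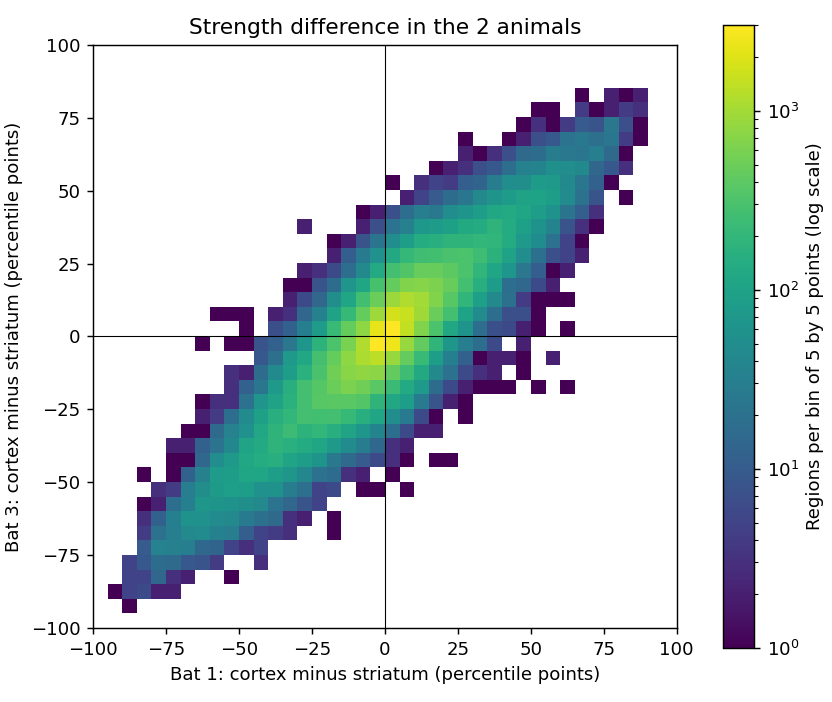
Number of shared regions (colour, log scale) by their strength difference, cortex minus striatum in percentile points, in bat 1 (x axis) and bat 3 (y axis). The regions lie along the diagonal, with a rank correlation of 0.794.

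Values by library are given for the called regions as a description, since the regions were called on these same libraries. In regions higher in cortex, the median percentile was 61.9 to 65.8 in the 8 cortical libraries and 25.8 to 27.3 in the 4 striatal ones. In regions lower in cortex, it was 23.6 to 31.3 in the cortical and 58.4 to 67.3 in the striatal libraries. In regions not called, it was 49.6 to 53.5 in the cortical and 50.2 to 52.7 in the striatal libraries. In the regions lower in cortex, the highest cortical medians were those of 2A (31.3) and PreM (30.1) of bat 1, and the lowest striatal median was that of putamen of bat 3. Cortex differed from caudate by a median of -29.4 points in the regions lower in cortex and from putamen by -25.1 points, and 68.8% of them differed more from caudate. In regions higher in cortex the medians were 25.1 points against caudate and 24.0 against putamen, with 55.3% larger against caudate. The difference between caudate and putamen itself was called in 0 of 70435 regions in limma (0%), with 6333 (8.99%) at an unadjusted p under 0.05. This contrast sets 2 libraries against 2, fewer than cortex against striatum. The absence of calls therefore does not show that caudate and putamen are alike.

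Regions of middle strength differed most often. Sorted by the mean of the 2 sides into 10 deciles, 21.6% of the weakest decile were called, 49.6% and 49.5% of the fourth and the fifth, and 16.7% of the strongest, against 37.7% of all shared regions. A difference of at least 20 points was called in 5.03% of the weakest decile, in 44.8% of the fifth and in 0% of the strongest. The ends of the scale leave less room, since a region with a mean above the 90th percentile cannot differ by more than 20 points. Regions higher in cortex outnumbered those lower in cortex in the 4 weakest and in the 3 strongest deciles, for example 1272 against 960 in the ninth, while the reverse held from the fifth to the seventh (1743 lower against 1445 higher in the sixth). Counted over the whole range, 3627 regions were in the top 10% in all 12 libraries. Of these, 288 (7.94%) were called, 171 higher and 117 lower in cortex, and 0 differed by 20 points. That 0 follows from the choice, which leaves room for at most 10 points between the sides.

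**Figure D3:**
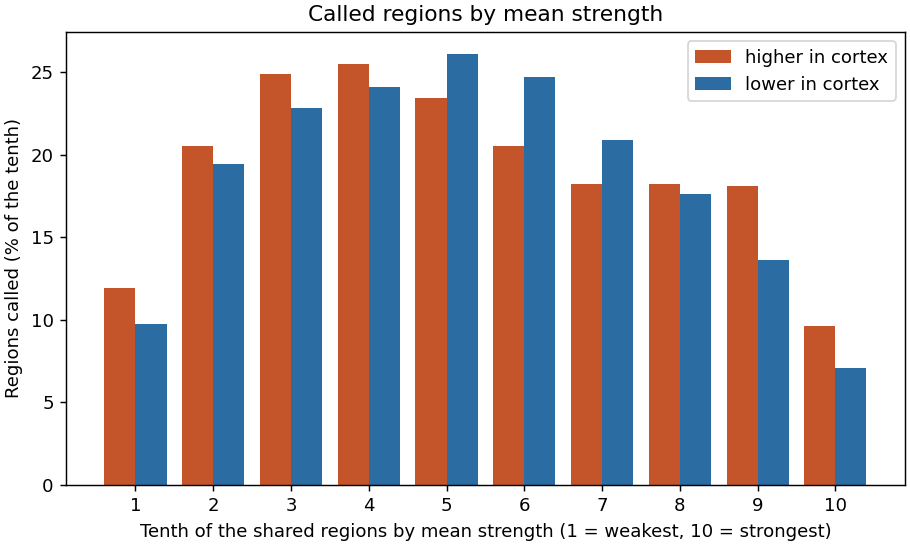
Share of the shared regions called higher in cortex and lower in cortex (y axis, percent of each decile) by decile of mean strength (x axis, 1 the weakest). The share called rises to 49.6% in the fourth decile and falls to 16.7% in the strongest.

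The strongest region was the same in all 12 libraries. It lies at bases 124334499 to 124335693 of scaffold NW_023416295.1, ranked 1 in 12 libraries, had a fold of 22.8 to 27.7 in cortex and 18.2 to 27.6 in striatum and also had a peak in all 8 libraries of cerebellum, liver, muscle and testis. The next strongest, at bases 33375559 to 33377360 of scaffold NW_023416312.1, had a fold of 13.6 to 16.2 in cortex and 13.7 to 16.1 in striatum. Both lie at the top of the percentile scale in every library, where a difference between sides could not appear.

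Width followed strength in part. Both measures were read from the same listed peaks, so they are not independent of each other. The bases covered by a library's peaks in a region were taken on a log2 scale and set relative to the median of the library. Width differed in 17252 regions (24.5%) by limma's test at an adjusted p under 0.05, with 9452 (13.4%) wider in cortex and 7800 (11.1%) narrower. Regions wider in cortex had a median of 996.25 covered bases in cortex and 543.75 in striatum, and regions narrower in cortex had 562 bases in cortex and 1036.25 in striatum. The median log2 difference was 0.76 in the first group and -0.76 in the second, and 2869 and 2128 regions differed at least 2-fold. The count depends on the libraries, with 11241 called without caudate of bat 3, 8807 without bat 1 and 8786 without bat 3. With 1 bat left out, areas of the other bat served as the replicates. The libraries as a whole did not separate by width: the median over shared regions averaged 794 ± 82.3 bases in cortex (SD, n = 8) and 802 ± 65.8 in striatum (SD, n = 4; exact permutation within animals, p = 0.8844, 225 arrangements). This difference of -8.12 bases was 58 bases in bat 3 alone and -74.2 bases in bat 1 alone.

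The strength and the width difference had a rank correlation of 0.59 over the 70435 regions. How far reading both from the same peaks relates them was not tested. Of the regions higher in cortex, 5145 (38.3%) were also wider there, 330 (2.45%) were narrower and 7967 were not called for width. Of the regions lower in cortex, 4499 (34.3%) were also narrower, 464 (3.54%) were wider and 8145 were not called for width. Among regions not called for strength, 8.76% were wider and 6.77% narrower in cortex, against 13.4% and 11.1% of all shared regions. The regions whose strength and width went opposite ways often held several intervals. A single interval in each library was found in 33.6% of those higher but narrower and 20.7% of those lower but wider in cortex, against 62.3% and 64.7% of the regions in which both went the same way.

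**Figure D4:**
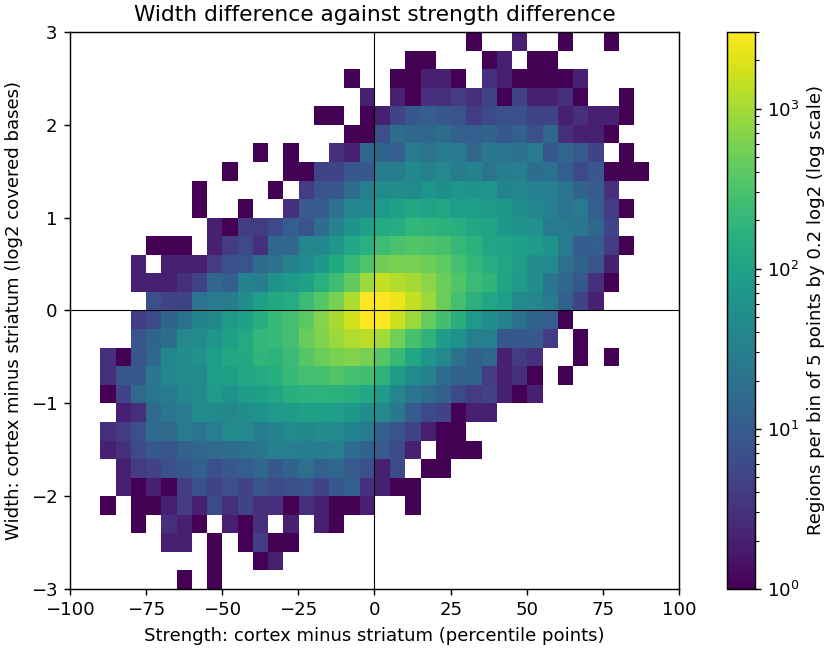
Number of shared regions (colour, log scale) by strength difference (x axis, cortex minus striatum in percentile points) and width difference (y axis, cortex minus striatum in log2 covered bases, each library set to its median). The 2 differences rise together, with a rank correlation of 0.59.

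The largest width differences were those of WC1 to WC5 (wider in cortex) and WS1 to WS5 (narrower in cortex). WC1, at bases 58333652 to 58335208 of scaffold NW_023416288.1, covered 1090, 1492.5 and 1523 bases (lowest, median and highest) in cortex, against 185 and 220 in caudate and 168 and 168 in putamen of bats 1 and 3. The striatal peaks were thus a small part of the cortical ones in width (log2 difference 2.97 ± 0.13, SE, limma adjusted p = 2.78e-06). They were also weak, with strength percentiles of 2.8 and 15.1 in caudate and 0.4 and 8.1 in putamen of bats 1 and 3. In putamen of bat 1 the -log10 p was 7.36, and the weakest peak listed there had 6.45. How far weakness of a peak sets its listed width was not tested. WC3, at bases 102224990 to 102226705 of scaffold NW_023416295.1, covered 1169, 1315.5 and 1716 bases in cortex, against 181 and 158 in caudate and 205 and 218 in putamen (log2 difference 2.85 ± 0.11, limma adjusted p = 1.47e-06). WS1, at bases 88946582 to 88948851 of scaffold NW_023416287.1, covered 187, 213 and 345 bases in cortex, against 1723 and 1523 in caudate and 1552 and 2038 in putamen (log2 difference -2.83 ± 0.18, limma adjusted p = 8.88e-06). WS2, at bases 30579491 to 30581595 of scaffold NW_023416307.1, covered 202, 272 and 373 bases in cortex, against 2012 and 2029 in caudate and 2031 and 1880 in putamen (log2 difference -2.83 ± 0.16, limma adjusted p = 4.66e-06). The sides did not overlap in these regions, which was a condition of naming them.

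Strength was called in the same direction in all 10 of these regions, with differences of 33.3 to 78.0 points in WC1 to WC5 and of -61.5 to -33.1 points in WS1 to WS5. Of the regions named for strength, C1 to C10 were all called wider in cortex (log2 differences of 0.74 to 2.27), and 8 of S1 to S10 were called narrower in cortex. The other 2 had log2 width differences of -0.52 (S1, limma adjusted p = 0.0834) and -0.84 (S10, limma adjusted p = 0.139).

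The position of the strongest summit moved little. Among the 47292 shared regions with 1 interval in each library, the median cortical and the median striatal summit lay a median of 9 bases apart, and 84.3% lay within 50 bases. The median distance was 12 bases in regions higher in cortex, 15 in regions lower in cortex and 7.5 in regions not called. Summits more than 200 bases apart were found in 9.47% of regions higher in cortex, 10.7% of regions lower in cortex and 5.2% of regions not called. For scale, the summits of the 8 cortical libraries in a region spanned a median of 28, 40 and 28 bases in these classes.

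Peaks in other tissues did not enter the choice of regions or the comparison, and their shares are given as a description, without a test. Regions lower in cortex, which are the stronger ones in striatum, had a peak in both cerebellar libraries in 50.7% of cases, against 67.2% of regions higher in cortex, 69.0% of regions not called and 65.3% of all shared regions. The order was the same in muscle (33.4% of regions lower in cortex, 46.6% of those higher and 55.1% of those not called), in testis (28.9%, 43.8% and 49.3%) and in liver (12.8%, 18.0% and 22.6%). No peak in any of the 8 libraries was found in 1294 regions lower in cortex (9.87%), in 754 higher (5.61%) and in 2629 not called (5.99%). A peak in all 8 was found in 6.83%, 12% and 17.9%. Strong regions have a peak elsewhere more often, so the shares were also taken within quartiles of mean strength. In the strongest quartile 80.8% of regions lower in cortex and 96.9% of those higher had a peak in both cerebellar libraries, and in the weakest quartile 40.7% and 47.7%.

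The gap between the classes differed between the animals outside the brain. Taking each of the 8 libraries in each quartile, the share with a peak was larger for regions higher in cortex in 30 of 32 cases, the exceptions being liver of bat 1 in the strongest quartile (45.9% higher, 47.2% lower) and muscle of bat 1 in the third (69.7% and 72.0%). In muscle of bat 3 a peak was found in 41.8% of regions lower and 58.0% of regions higher in cortex, while in muscle of bat 1 it was 59.2% and 60.1%. In cerebellum both animals showed the gap, with 56.5% and 71% in bat 1 and 57.9% and 75.9% in bat 3. At S1 to S10, muscle and testis of bat 1 had a peak in 9 and 8 regions and muscle and testis of bat 3 in 2 and 2. At C1 to C10, the same libraries had a peak in 5 and 3 regions in bat 1 and in 3 and 7 in bat 3. Over all shared regions, muscle and testis had a peak in 63.8% and 56.7% in bat 1 and in 59.6% and 54.1% in bat 3. Cerebellum and liver had a peak at 4 and 4 of S1 to S10 in bat 1 and at 5 and 3 in bat 3. By the index labels in the names of the deposited lists, all 4 other-tissue libraries of bat 1 carry the second index of caudate and putamen of bat 1, against 0 of 4 in bat 3. Muscle and testis of bat 1 also carry the first index of putamen and caudate of bat 3, and that of wM1 and PreM of bat 1. Liver and cerebellum of bat 1 carry the first index of 2A and wM1 of bat 3, so first indexes are shared with both sides. The sides themselves carry different second indexes in bat 1 and the same one in bat 3. The part of shared indexes in these peaks was not tested.

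**Figure D5:**
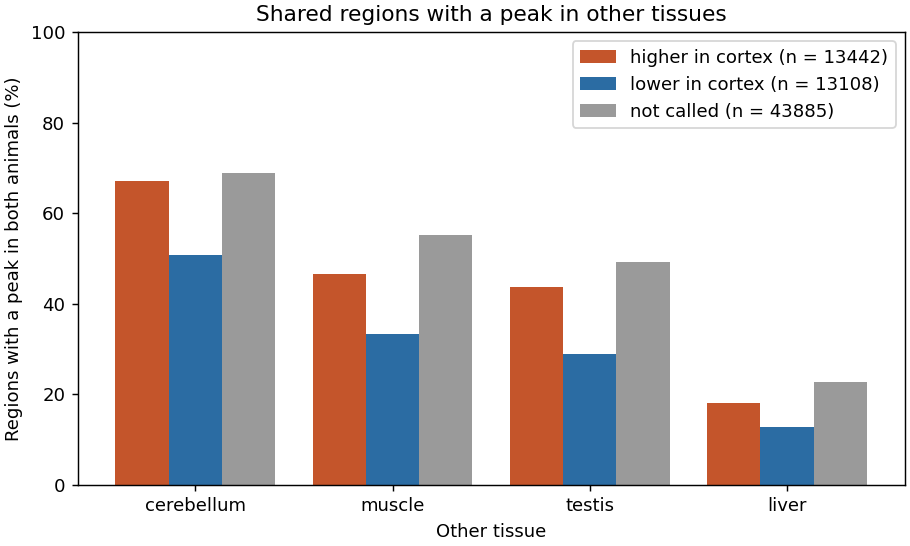
Share of shared regions with a peak in both animals (y axis, percent) in cerebellum, muscle, testis and liver (x axis), for regions higher in cortex, lower in cortex and not called. In each tissue the share is lowest for regions lower in cortex, at 50.7% in cerebellum and 12.8% in liver.

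Neighbouring regions were compared in direction. Of 443 pairs of adjacent shared regions under 1 kb apart that were both called, 40.9% had the same direction, and of 1770 pairs 1 to 5 kb apart 46.7%. At 5 to 20 kb it was 55.3% of 4711 pairs and at 20 to 100 kb 55.4% of 3581 pairs. The 443 and 1770 pairs are those with both regions called, of 3276 adjacent pairs under 1 kb and 12364 at 1 to 5 kb. The rank correlation of the differences over all adjacent pairs was -0.041 under 1 kb, -0.006 at 1 to 5 kb and 0.092 at 5 to 20 kb, so the closest neighbours showed no likeness in direction or size. Some stretches ran in one direction over many regions. Counting called regions of one direction that follow each other at gaps of at most 50 kb with no called region of the other direction between, 139 runs of 5 or more regions were higher in cortex and 159 were lower, holding 6.03% and 7.06% of the regions of their direction.

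The longest runs, chosen after their values were seen, had 12 regions higher in cortex and 10 regions lower. One run of 12 spans bases 39228172 to 39444046 of scaffold NW_023416284.1 (215.9 kb), where 12 of 16 shared regions lay higher in cortex, with a median difference of 53.4 points and a range of 5.7 to 70.1 points, 10 of them with no overlap of the sides. Another run of 12, at bases 16523934 to 16752169 of the same scaffold, held 25 shared regions and had a median difference of 13.2 points. Of the runs lower in cortex, one of 10 regions at bases 47572355 to 47742639 of scaffold NW_023416291.1 (170.3 kb) had a median of -34.3 points, with 9 of the 10 without overlap. The other run of 10 lies at bases 28339159 to 28504070 of scaffold NW_023416287.1, with a median of -22.6 points.

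Shared regions were also placed against regions open on one side alone, again as a description. A region with a peak in all 4 striatal and no cortical library lay within 20 kb of 46.4% of regions lower in cortex, 41.3% of those higher and 37.4% of those not called. A region with a peak in all 8 cortical and no striatal library lay within 20 kb of 41.9% of regions lower in cortex, 38.8% of those higher and 33.4% of those not called. Regions of either direction thus had side-only regions of both kinds nearby more often than regions not called.

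The directions were not spread evenly over the scaffolds. On the 18 scaffolds with at least 500 shared regions, which hold 70198 of the 70435, the share called was 28.7% to 40.7%. The share lower in cortex was 9.95% on NW_023416289.1 and 13.2% on NW_023416292.1, where 20.3% and 18.2% were higher in cortex, and it was 22.4% on NW_023416286.1, where 18.1% were higher. On NW_023416312.1, which had the lowest share called, 11.5% were higher and 17.2% lower in cortex. The median difference over all shared regions of a scaffold ranged from -1.9 points on NW_023416312.1 to 4.7 points on NW_023416289.1.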

How the data were processed

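The authors deposited 1 peak list per ATAC-seq library, so peaks were called per library. Each deposited row gives a position, a fold enrichment (the ratio of signal to local background) and a -log10 p. The submitters' processing notes name Bowtie2 and MACS2 but assign no role to either. The names of the deposited lists give a p threshold of 0.01 and a limit of 300000 rows. The genome build and other settings were not given in the sources used here. Depth behind the lists is unknown.

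Rows with the same interval were collapsed to their highest fold and -log10 p. The 12 lists were merged where intervals overlapped by at least 1 base (Python 3.11.15). Positions follow the deposited lists, with the first base as 1. Percentiles and log2 widths were tested with limma 3.58.1 in R 4.3.3 (eBayes with trend, 2-sided, 1 term per area, mean of the cortical areas minus mean of caudate and putamen), with Benjamini-Hochberg adjustment over 70435 regions and a threshold of 0.05. In the main fit, the error is the spread between the 2 animals within an area, pooled over the 6 areas. The fit has no animal term and takes areas of the same bat as independent, though all come from 2 bats. The p-values therefore do not measure how the side difference varies between bats. With 1 bat left out, and in the interaction test, areas of a bat served as the replicates instead. Each bat gave 1 library per area, which pairs the sides within an animal. As a check, the bat 1 minus bat 3 deviations of 2 areas correlated over regions at -0.087 to 0.542 (median 0.189, 9 of 15 pairs of areas above 0.1). Alternatives were a replicate block, other rank and width scales, stricter sets of regions, and leaving out libraries or a bat.

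Named regions were the 10 (strength) and 5 (width) with the largest differences per direction, among those called, without overlap of the sides in that measure and with the same direction in both animals. The members and lists were chosen with earlier results of these data known. The gene lists and cell type markers planned for regions near gene starts were not run, because the gene table places no gene on a scaffold. The RNA-seq libraries come from other animals and were not used here.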

Additional observations from a re-analysis of the deposited data

Results flagged for a closer look

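Within a side, 9 of the 64 groups of library values examined had 1 library far from the others relative to the range of the group. The rule flags about 1 in 20 by chance. All 9 were named regions, which were chosen for extreme values, so that rate is no measure for them. In striatum, caudate of bat 3 stood at a percentile of 3.9 in C1 (the next at 1.0), putamen of bat 3 at 8.1 in C5 (next 1.4) and caudate of bat 1 at 6.8 in C6 (next 3.2). Putamen of bat 3 was also lowest at S2, at 91.4 (next 95.4), and at S10, at 82.1 (next 91.9). In cortex, 2A of bat 1 stood at 15.0 in S4 (next 6.2) and PreM of bat 3 at 11.6 in S10 (next 5.3). For width, 2A of bat 3 had a log2 width relative to its library's median of -0.02 in WC2 (next 0.75) and of -0.86 in WS3 (next -1.68).

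The region at bases 16341606 to 16342860 of scaffold NW_023416308.1 stood out because its strength difference was smaller in bat 3 than in bat 1 (bat 3 minus bat 1, -35.9 points, limma interaction, adjusted p = 0.0166). With normal scores of the rank, 0 regions had such a difference at that threshold, and 4087 had one at an unadjusted p under 0.05 in limma.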

How the results depend on the processing

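For the count of regions that differ in strength, 26550, no alternative called a region in the opposite direction except the rank of the fold, with 48 such regions and 20101 called alike (75.7%). A replicate block for the animal gave 31101, and means per animal and side with that block gave 31061. The means leave 1 value per animal and side, so that fit rests largely on error pooled over regions. Its larger count is therefore no separate support at the level of animals. For width, where 17252 regions were called, the block gave 18664 and the means 19887, and neither ended a call among the 30 named regions. The width of the strongest peak alone called 13555 regions, 22 of them in the opposite direction. Stricter sets hold fewer regions to test, and the share called was also lower than the 37.7% of all shared regions. With 1 interval in each library, 16750 of 47292 were called (35.4%). With every library at or above the highest list floor, 14571 of 48233 were called (30.2%). Where each library covers at least 50% of the region, 8079 of 29897 were called, a lower share still. Of the reported calls among the regions tested, 96.9%, 85.4% and 84.6% were called again in these sets. Asking for more of a call gave 17682 with at least 20 points and 16638 with no overlap of the sides. Cortex against putamen alone gave 15256. Leaving out 1 library or 1 bat gave 18113 to 28037 for strength and 8786 to 17927 for width, and width gave 10476 with 1 interval in each library. With 1 bat left out, the fit took areas as the replicates. The regions whose difference depends on the animal numbered 0 with normal scores and 5 with the rank of the fold, alternatives chosen after seeing the data (unadjusted p under 0.05 in 4087 and 7936). The difference in median width ran from -74.2 to 58 bases with 1 bat left out, and so turned in direction, and that in median fold from -1.87 to -1.55. All 645 values that the 30 named regions had under the alternatives kept their direction and a limma adjusted p of at most 0.00451. Regions outside a stricter set have no value for it. C1 to C10 and S1 to S10 were all outside the sets with at least 50% covered and with every library at the highest floor. The named regions were also chosen for large differences without overlap, so their stability is no separate support. The limit of 300000 rows set the weakest peak listed in each of the 12 libraries, and read depth is unknown here.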
